A study of Mus musculus with 2 samples.

Results

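The 7 genes described here encode the chitinase-like and resistin-like proteins that mouse macrophages and their neighbours can secrete. They were taken as a named gene family, and earlier results of these data were known when they were chosen. The members are the chitinase family genes Chil1, Chil3, Chil4, Chit1 and Chia1, and the resistin-like genes Retnla and Retnlg. All 7 were matched to an NCBI gene number, and 4 of them were among the 15623 genes that had a value in 1 or both libraries. A gene absent from a library's table was set to 0. RNA was sequenced from peritoneal macrophages of wild type C57BL/6 mice, which were 6 to 8 weeks old per the methods of the study. The mice had received 4% thioglycolate intraperitoneally 4 to 5 days earlier, and the lavaged cells were purified by adherence for 4 h and kept in medium with little serum. The cells were left nontreated (NT, 1 library) or received mouse IL-4 for 6 h (IL-4, 1 library), and the labels give no other difference between the groups. How many mice gave each library was not given, and the labels name bone marrow as the tissue in another field.

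IL-4 is the Th2 cytokine that turns macrophages to the alternatively activated (M2) state through its receptor, Janus kinases and the transcription factor Stat6. Mammalian chitinases share a barrel fold with bacterial chitinases. Chit1 and Chia1 cleave chitin, whereas Chil1, Chil3 and Chil4 have lost the catalytic residue and are secreted lectins. Chil3 (Ym1) and Retnla (resistin-like alpha, Fizz1), a small cysteine-rich secreted protein, are among the most used markers of M2 macrophages in the mouse.

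The NT library held 11035641 expected counts, the reads that the authors' software assigned to genes, and the IL-4 library held 11250099. Of 15593 genes tested, 635 (4.07%) were called higher and 979 (6.28%) lower in the IL-4 library. A call needed 3 things: a size of 0.75 or more for the log2 ratio, a p of 0.05 or less in an exact two-sided conditional binomial test, and a Benjamini-Hochberg (BH) adjusted value of 0.5 or less. Log2 ratios were taken of counts scaled to the library total (CPM), with 0.5 count added. Folds, ratios not on the log2 scale and all intervals were taken without an added count. The median log2 ratio of all tested genes was -0.03. With 1 library per group there is no replicate error, so every p-value and interval below covers counting error and compares the libraries, not the conditions. Of the macrophage markers, Lyz2 (lysozyme), Cd68 and Csf1r (the receptor of the macrophage growth factor) were present in both libraries, at 11289, 3240 and 145 FPKM in NT and 10811, 3465 and 270 FPKM in IL-4. FPKM is the level scaled for transcript length and for library depth.

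Of the 7 genes, 3 were called higher (Chil3, Chil4 and Retnla), 0 were called lower, Chil1 was not called, and Chit1, Chia1 and Retnlg were at 0 in both libraries. Among all tested genes, 4.07% were called higher and 6.28% lower. All 3 called genes had a log2 ratio of at least 4, which 74 of all tested genes (0.475%) reached as called rises. For Chil4 that size rests on the 0.5 count added to a zero in NT.

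**Figure D1:**
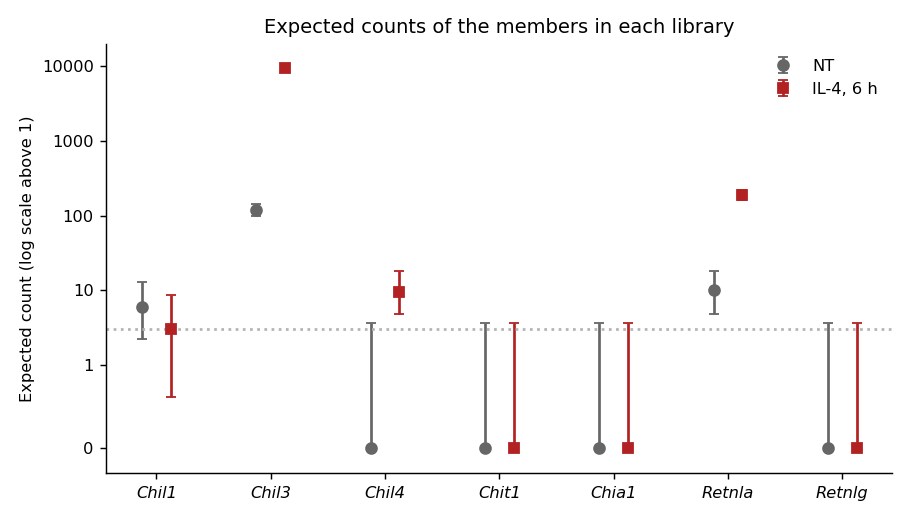
Expected counts of the 7 genes in the NT library (grey circles) and the library after 6 h of IL-4 (red squares), on an axis that is logarithmic above 1 and linear below it. Bars are exact 95% Poisson intervals and the dotted line marks 3 counts. Chil3 stood at 121 and 9566 counts and Retnla at 10 and 191, with intervals that do not overlap, while Chil1 stood at 6 and 3 with overlapping intervals.

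Chil3 (gene 12655) lies on the minus strand of chromosome 3 from 106147554 to 106167564 in GRCm38 and has 11 exons. It had 121 expected counts in NT (exact 95% Poisson interval 100 to 145) and 9566 in IL-4 (9375 to 9760). The IL-4 library was the high one and the intervals lay far apart. The level per length was 7.17 FPKM in NT and 555 FPKM in IL-4. The log2 ratio was 6.27 (exact 95% interval 6.02 to 6.55), a rise of 77.6-fold (64.8 to 93.6), and its p was too small for the software to represent. In a bulk library, more cells that make a transcript and more of it per cell cannot be told apart.

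In NT, Chil3 ranked 6444 of 14842 listed genes by FPKM, so 43.4% of them stood above it. In IL-4 it ranked 132 of 14717, with 0.890% above it. By log2 ratio it was number 14 of 9925 genes that had at least 50 expected counts in 1 library. By its gain in CPM, 839, which took it to 850 CPM, it was number 12 of all 15593 tested genes. Chil3 was thus a gene of middling level in the nontreated library and one of the most abundant messages of the IL-4 library.

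Chil4 (Ym2, gene 104183) is the closest relative of Chil3, a secreted chitinase-like protein known mainly from epithelial tissues. It lies on the same strand of chromosome 3, from 106201491 to 106219479, also with 11 exons, and its left end is 53.9 kb from that of Chil3. It was at 0 counts in NT and at 9.54 in IL-4, or 0.56 FPKM, where it ranked 11089 of 14717. Against the 3 counts in NT taken as the smallest detectable number, it was 3.12-fold higher in IL-4, a ratio that leaves out counting error. The gene was called higher (exact binomial test, BH-adjusted p = 0.00844). With 0.5 count added its log2 ratio was 4.30, with a lower limit of 1.14 and no upper limit. The call was lost with 1 FPKM added before the ratio (log2 ratio 0.64) and in an edgeR exact test that assumed a biological variation of 0.4, and a minimum of 10 expected counts removed the gene.

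The counts of Chil3 and Chil4 in IL-4 were not whole. In a count per gene, this is how the authors' software marks reads that it divided between genes by estimated abundance. Their sum was 9576, a whole number. The coding sequences of the pair, aligned over 1194 bases in the GENCODE annotation of GRCm38, were the same at 1139 positions (95.4%) and differed at 55. Of all 31-base words of the Chil3 transcript, 31.1% were found in that of Chil4. The share was 18.5% for words of 50 bases and 3.75% for words of 100 bases. The longest run with no difference had 136 bases. The pair is shown where it differs most, at 11 of 90 coding bases in exon 8 of 11. Capitals mark the differing bases, and the stretches lie on the minus strand at chr3:106149734-106149823 and chr3:106203684-106203773.
Chil3: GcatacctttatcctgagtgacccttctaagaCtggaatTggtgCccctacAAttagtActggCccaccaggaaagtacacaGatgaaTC
Chil4: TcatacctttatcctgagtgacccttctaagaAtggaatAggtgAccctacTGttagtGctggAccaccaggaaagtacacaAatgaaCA
For contrast, these 90 bases of exon 5 were the same in both genes, at chr3:106160397-106160486 in Chil3 and chr3:106210502-106210591 in Chil4, so that a read falling in them could not be told from the other copy.
Chil3 and Chil4: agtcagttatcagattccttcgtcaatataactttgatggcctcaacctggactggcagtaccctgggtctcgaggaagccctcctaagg

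**Figure D2:**
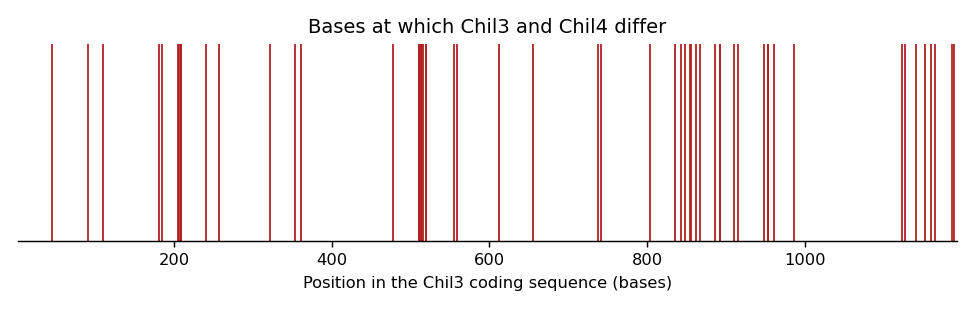
Positions at which the coding sequences of Chil3 and Chil4 differ, counted in bases from the start codon of Chil3. Each red line is 1 of the 55 differing positions among 1194 aligned bases. The differences are unevenly placed, with a gap of 136 bases near the 3' end.

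Chil4 took 0.0996% of the reads of the pair in IL-4 (exact Clopper-Pearson 95% interval 0.0501% to 0.192%). That interval treats 10 of 9576 rounded counts as observed reads and leaves out the error of dividing reads between the copies. In NT, Chil4 took 0 of 121. There the 3 counts taken as the smallest detectable number equal a share of 2.48%, and the exact interval reaches somewhat higher. At the share seen in IL-4, the 121 reads of NT would hold 0.121 reads of Chil4. A difference between the shares, that is a change of Chil4 apart from that of Chil3, was not detectable at this depth (Fisher's exact test, two-sided, p = 1). The sum of the pair gave a log2 ratio of 6.27 (6.02 to 6.55), the same as Chil3 alone at this precision. How far reads of Chil3 counted as Chil4 made up its 9.54 counts was not tested.

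Chil1 (gene 12654, chromosome 1, 134182156 to 134190031, plus strand) encodes a secreted lectin, the mouse counterpart of human CHI3L1, that macrophages and epithelia make in inflammation. It had 6 counts in NT and 3 in IL-4, or 0.32 and 0.16 FPKM, and the Poisson intervals overlapped. The ratio of IL-4 over NT was 0.490 (exact 95% interval 0.0794 to 2.30), which was not called (exact binomial test, BH-adjusted p = 0.741). Its coding sequence was the same as that of Chil3 at 59.5% of aligned bases, and no 31-base word was shared.

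The true chitinases were not detected. Chit1 (chitotriosidase, gene 71884, chromosome 1, 134111242 to 134151541) and Chia1 (acidic mammalian chitinase, gene 81600, chromosome 3, 106113382 to 106132118) were at 0 in both libraries. The 3 counts taken as the smallest detectable number equal 0.272 CPM in NT and 0.267 CPM in IL-4, and the exact 95% Poisson interval of a count of 0 reaches 3.69 counts. Chia1 is the gene next to Chil3 on the chromosome, and its coding sequence was the same as that of Chil3 at 74.9% of aligned bases.

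Retnla (gene 57262) lies on the plus strand of chromosome 16, from 48842609 to 48844461, with 4 exons. It had 10 expected counts in NT (4.80 to 18.4) and 191 in IL-4 (165 to 220), and the intervals did not overlap. All its counts were whole. The level per length was 1.58 FPKM in NT and 29.7 FPKM in IL-4. The log2 ratio was 4.16 (3.32 to 5.31), a rise of 18.7-fold (9.97 to 39.7; exact binomial test, BH-adjusted p = 3.24e-42). It moved from rank 9844 of 14842 listed genes by FPKM to rank 2389 of 14717. By log2 ratio it was number 32 of 9925 genes with at least 50 expected counts in 1 library. Retnla passed that minimum only in IL-4, where it is high, so this rank is not independent of the rise.

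Retnlg (resistin-like gamma, gene 245195, chromosome 16, 48872608 to 48874498), a protein known from bone marrow and neutrophils, was at 0 in both libraries although its left end lies 30.0 kb from that of Retnla. The coding sequences of the pair were the same at 83.5% of 351 aligned bases. They shared 5.45% of the 31-base words of Retnla and no word of 50 bases.

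Chil3 rose more than Retnla between the libraries. The difference of their log2 ratios, taken without an added count, was 2.05 (exact 95% interval 0.93 to 3.01), so that the fold of Chil3 was 4.14 times that of Retnla (1.90 to 8.04; Fisher's exact test on the reads, two-sided, p = 0.000328). On the FPKM scale the level of Chil3 was 4.54 times that of Retnla in NT and 18.7 times in IL-4. This interval rests on the 10 reads of Retnla in NT.

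**Figure D3:**
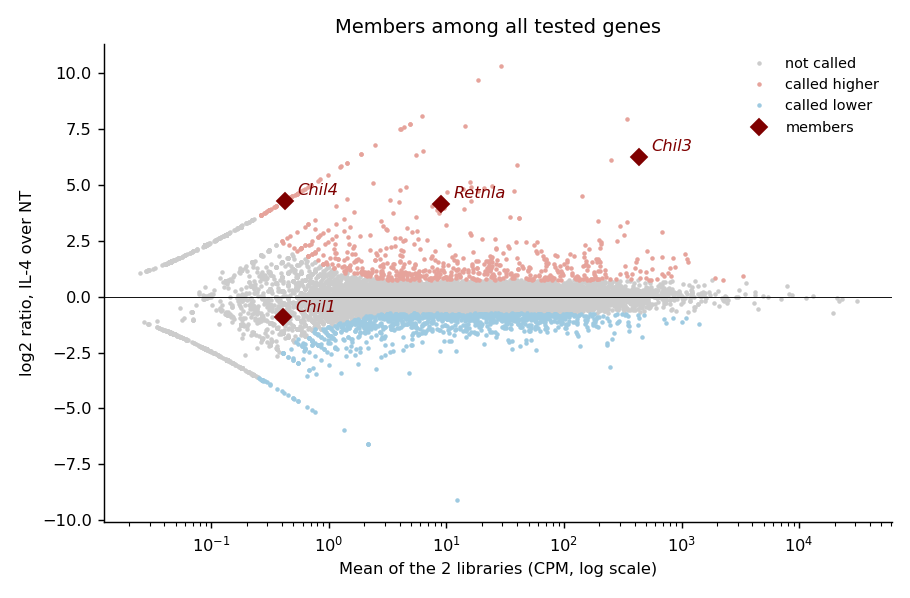
Log2 ratio of IL-4 over NT (CPM with 0.5 count added) against the mean of the libraries in CPM on a log axis, for the 15593 tested genes. Grey points were not called, pink were called higher, blue were called lower, and dark red diamonds are the 4 listed members. Chil3 lies at 6.27 at the high end of abundance, Retnla at 4.16 in the middle, and Chil4 (4.30) and Chil1 (-0.92) at the low end, where Chil4 sits on the curve of genes with no read in NT.

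None of the relatives of these genes was called. Of 8 other genes of the chitinase and resistin families, 7 were matched and 5 had a value, of which 0 were called in either direction. Over all tested genes 4.07% were called higher and 6.28% lower, so 0 of 5 is near that share. Chid1, a stabilin-interacting chitinase-like protein, had 328 counts in NT and 411 in IL-4, a log2 ratio of 0.30 (0.08 to 0.51). Ctbs, the lysosomal di-N-acetylchitobiase, had 329 and 330 counts, a log2 ratio of -0.02 (-0.25 to 0.20). These broadly expressed genes, at 6.95 and 10.2 FPKM in NT, stood near the level of Chil3 before stimulation. Ovgp1 (oviductin) had 4 counts in NT and 0 in IL-4. Chil5 and Retn (resistin, the adipocyte hormone) had 1 and 0 each, and Chil6 and Retnlb, a goblet cell product, were at 0.

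Genes that lie beside the members were compared next, because Chil3, Chil4, Chia1 and 3 relatives stand in a cluster on chromosome 3. In the stretch from Atp5pb to Cept1, 11 genes lie in order in the RefSeq table, 6 of them of the chitinase family. Of the other 5, 4 had a value and 0 were called. Wdr77, a methylosome subunit, had 315 counts in NT and 394 in IL-4 (log2 ratio 0.29). Dennd2d, a regulator of Rab proteins, had 109 and 99 (-0.17). Atp5pb, a subunit of ATP synthase, had 1618 and 2084 (0.34), and Cept1, a phospholipid-synthesizing enzyme, had 777 and 796 (0.01). Dennd2d and Cept1 overlap at their ends and the strand of the libraries is not given, so reads there cannot be assigned with certainty.

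On chromosome 16, Retnla lies between Retnlb and Retnlg. Beyond them, Dzip3, a ubiquitin ligase, had 78 and 79 counts (-0.01) and Cip2a, an inhibitor of protein phosphatase, had 41 and 56 (0.42). Trat1, a T cell adaptor, had 0 and 1 count and Morc1, a germ cell gene, was at 0. Around Chil1 and Chit1, the antiproliferative gene Btg2 had 288 and 209 counts (-0.49), Fmod 5 and 2, Adora1 2 and 0, and Mybph was at 0. None of the neighbours that are outside the families was called in either direction by the exact test, in any of the 3 places. Over all tested genes 4.07% were called higher and 6.28% lower, so 0 calls among so few neighbours is near that share. Fmod, Adora1 and Trat1 had 5 counts or fewer.

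**Figure D4:**
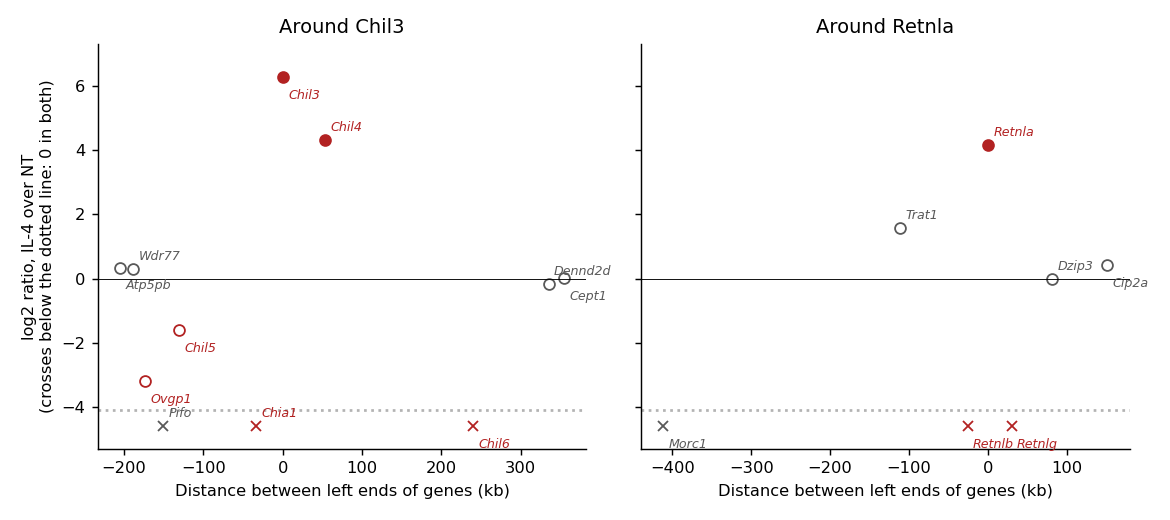
Log2 ratio of IL-4 over NT for the genes around Chil3 (left) and Retnla (right), against the distance in kb between the left end of each gene and that of Chil3 or Retnla. Red marks the chitinase and resistin families and grey other genes, filled points were called, open points were not, and crosses below the dotted line are genes at 0 in both libraries. Chil3, Chil4 and Retnla stand above 4, and the other genes with at least 10 counts lie within 0.42 of 0.

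The 250 bases before the transcription start are shown for the 3 genes that were called higher and for Retnlg, the undetected copy of Retnla. They are RefSeq sequences of GRCm38.p6, 5' to 3' on the strand of the gene. The positions are chr3:106167565-106167814 for Chil3, chr3:106219480-106219729 for Chil4, chr16:48842359-48842608 for Retnla and chr16:48872358-48872607 for Retnlg. Capitals mark matches to 5 short motifs, whose letters were chosen with these sequences in view.
Chil3: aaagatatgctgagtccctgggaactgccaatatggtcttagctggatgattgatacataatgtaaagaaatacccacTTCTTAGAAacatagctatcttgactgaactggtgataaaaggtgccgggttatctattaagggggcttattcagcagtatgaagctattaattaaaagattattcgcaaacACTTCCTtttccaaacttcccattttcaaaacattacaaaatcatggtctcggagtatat
Chil4: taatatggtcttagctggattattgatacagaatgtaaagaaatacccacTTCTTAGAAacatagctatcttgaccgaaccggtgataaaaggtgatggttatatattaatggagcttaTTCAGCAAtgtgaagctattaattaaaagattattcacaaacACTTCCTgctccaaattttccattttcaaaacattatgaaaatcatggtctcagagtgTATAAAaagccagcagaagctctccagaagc
Retnla: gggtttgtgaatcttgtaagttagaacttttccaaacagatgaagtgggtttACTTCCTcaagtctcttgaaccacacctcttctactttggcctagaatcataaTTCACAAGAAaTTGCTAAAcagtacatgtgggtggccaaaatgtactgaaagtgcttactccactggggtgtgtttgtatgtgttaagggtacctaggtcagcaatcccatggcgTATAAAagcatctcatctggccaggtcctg
Retnlg: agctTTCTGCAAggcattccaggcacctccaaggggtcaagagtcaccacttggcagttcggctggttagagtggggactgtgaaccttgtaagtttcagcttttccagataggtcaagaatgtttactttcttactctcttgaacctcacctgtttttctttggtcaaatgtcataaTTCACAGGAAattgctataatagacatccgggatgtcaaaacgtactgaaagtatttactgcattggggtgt

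The motifs were searched on both strands in these windows and in the same window of 32851 RefSeq transcription starts. They were TTCNNNNGAA and TTCNNNGAA, the forms that STAT proteins bind (Stat6 with the wider spacing), TTGCNNAA for C/EBP proteins, AGGAAGT for PU.1, and TATAAA. The shares of all windows that held them were 5.85%, 7.02%, 9.56%, 7.69% and 12.4%. Retnla held TTCACAAGAA, 145 to 136 bases before the start. Close to it was the C/EBP match TTGCTAAA at 134 to 127, with TATAAA at 30 to 25 and the PU.1 match ACTTCCT at 198 to 192. Retnlg held the same kind of STAT match, TTCACAGGAA, but at 72 to 63, its C/EBP match TTCTGCAA at 246 to 239, and no TATAAA in this window. The Retnlg window ends in letters (cattggggtgt) that resemble letters of Retnla (cactggggtgt) well before the start of Retnla. These positions and the lack of TATAAA thus depend on where the start is annotated. Bases beyond the window were not searched.

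Chil3 held the STAT match with the narrower spacing, TTCTTAGAA, at 172 to 164 and ACTTCCT at 60 to 54. Chil4 held the same letters at 200 to 192 and 89 to 83, with the C/EBP match TTCAGCAA at 131 to 124 and TATAAA at 31 to 26. The Chil3 window ends in letters (ggtctcggagtatat) that resemble those of Chil4 at its TATAAA (ggtctcagagtgTATAAA). Whether TATAAA was found for Chil3 thus depends on where its start is annotated. The windows of Chil3 and Chil4 were the same at 91.4% of 220 aligned bases, and those of Retnla and Retnlg at 76.7% of 176. Of the genes at 0 in both libraries, Chia1 held TATAAA and no other of the 5 motifs, Chit1 held none, and the relative Chil6 held 2 STAT matches with the narrower spacing, a C/EBP match and TATAAA. Chil1, which was not called, held none. None of these matches overlapped another. A match is a description of the letters and no binding was measured here.

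The genes that carry the IL-4 signal were described as a list of 15, covering the receptor chains, kinases, transcription factors and co-activators. Of these, 4 were called higher, 1 lower and 10 neither, where 4.07% of all tested genes were called higher and 6.28% lower. The median log2 ratio of the list was -0.03, beside -0.03 over all tested genes. The transcription factor Irf4 had 30 counts in NT and 820 in IL-4 (log2 ratio 4.72, 4.22 to 5.32). Pparg, the nuclear receptor of lipid metabolism, went from 1077 to 3192 (1.54), Klf4 from 169 to 458 (1.41) and Cebpb, which encodes a C/EBP protein, from 1183 to 2084 (0.79). Crebbp, the acetyltransferase CBP, was lower, at 561 and 312 counts (-0.87). Its call was lost in 5 of 12 alternatives, among them the subtraction of the trend with gene length (-0.40), and that of Cebpb in 4 of 11, among them the same subtraction (0.66). Il13ra1, a receptor chain, had 327 and 203 (-0.71), Ep300, the other acetyltransferase of that pair, 1958 and 1273 (-0.65), and Jak3 151 and 116 (-0.41), none of which was called. The factors whose motifs were searched, named with their values known, were Stat6 at 2951 and 2420 counts (-0.31) and Spi1 (PU.1) at 3705 and 3783 (0.00).

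Other products of IL-4-treated macrophages rose with Chil3 and Retnla. Of 24 such genes, 20 were called higher, 2 lower and 2 neither, where 4.07% of all tested genes were called higher and 6.28% lower. The genes were chosen with earlier results of these data known, so the list is not independent evidence of direction. The median log2 ratio of the list was 2.34, beside -0.03 over all tested genes. It was 1.89 with the 3 genes that rose from 0 set against 3 counts in NT. Cish, a feedback inhibitor of cytokine signalling, went from 0 to 662 counts, at least 216-fold higher. Arg1, the arginase that consumes arginine, went from 30 to 7711 counts, a rise of 252-fold (176 to 374), and Pdcd1lg2 (PD-L2) from 14 to 879, a rise of 61.6-fold (36.5 to 113). Cdh1 (E-cadherin) had 1 and 52 counts, a ratio of 51.0 (8.76 to 2053). Il1rn, the interleukin-1 receptor antagonist, was lower, at 675 and 392 counts (-0.81), as was the transglutaminase F13a1, at 99 and 59 (-0.77). The call of F13a1 was lost in 8 of 12 alternatives, among them TMM scaling (-0.73) and median-of-ratios scaling (-0.74), and that of Il1rn in 3 of 11. Msr1, a scavenger receptor, had 860 and 548 (-0.68) and was not called. Per length, Chil3 stood above Arg1 in IL-4, at 555 against 463 FPKM, and also in NT, at 7.17 against 1.84 FPKM.

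**Figure D5:**
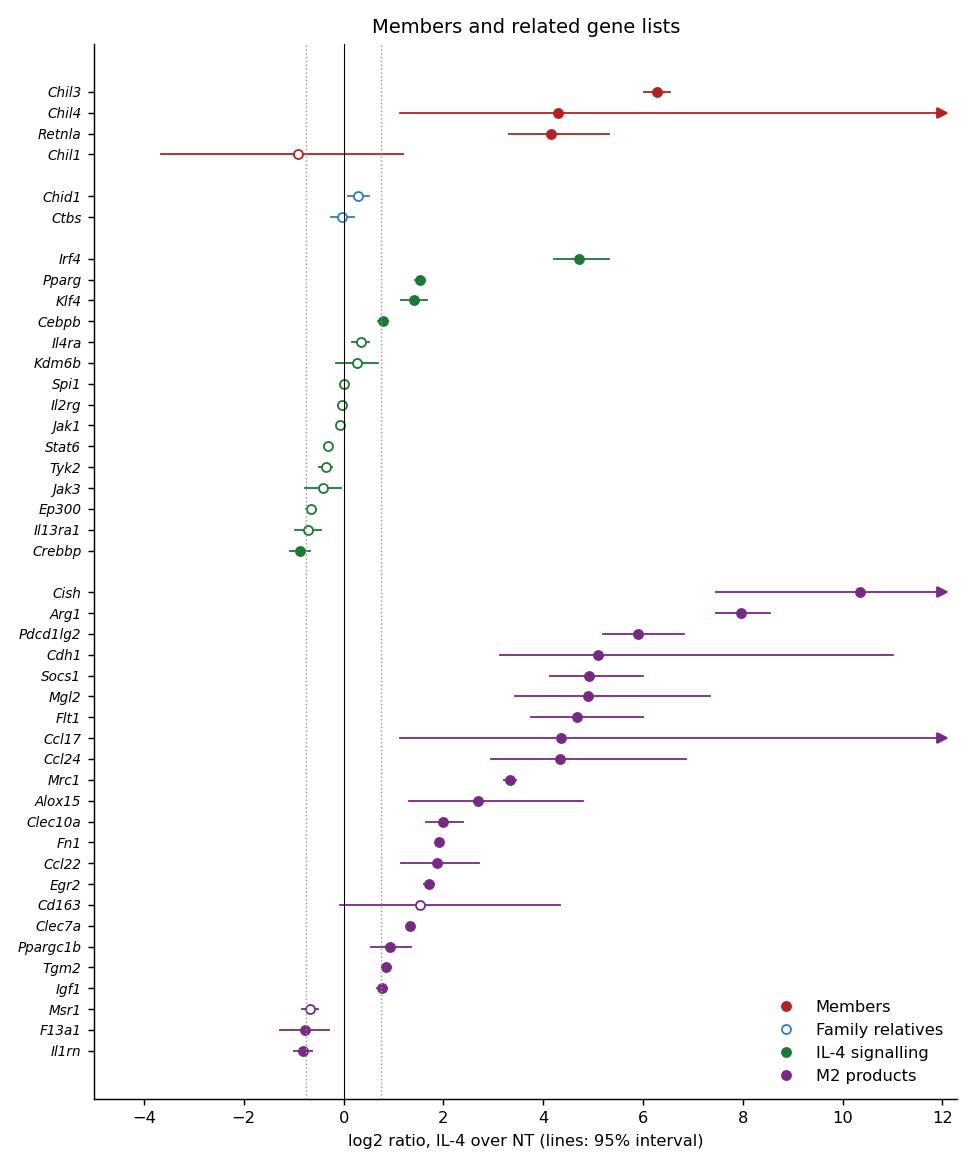
Log2 ratio of IL-4 over NT (CPM with 0.5 count added) for the members that had a value and for listed genes with at least 10 expected counts in 1 library, by list. Lines are exact 95% intervals, arrows mark intervals with no upper limit, filled points were called, and dotted lines mark 0.75 in size. Chil3 (6.27), Chil4 (4.30) and Retnla (4.16) lie among the larger rises of the M2 products, the relatives Chid1 and Ctbs lie near 0, and most IL-4 signalling genes lie below 0.75.

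Proteins reported to bind these secreted products, or the related resistin (Retn), which is not a member, were described as a list of 6. Cd44, a receptor of hyaluronan and of Chil1, was called higher, at 2753 and 5698 counts (1.02, 0.96 to 1.09), and the other 5 were not called. Of all tested genes 4.07% were called higher and 6.28% lower, and a list of 6 is too short to be set against that share. Lgals3 (galectin-3) had 71837 and 102661 counts (0.49), and Tmem219, a co-receptor for Chil1, 285 and 303 (0.06). Cap1 and Tlr4, both named as resistin receptors, had 9371 and 8531 (-0.16) and 1217 and 1207 (-0.04). Il13ra2, the decoy receptor of IL-13 that Chil1 also binds, had 0 and 3 counts.

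The genes with the log2 ratio nearest to that of Chil3 were taken from 9617 genes that had at least 50 expected counts in IL-4. With 1 library per group, likeness here is the likeness of a single ratio. They were Sprr2a3 (6.33), Tmem26 (6.12), Col6a5 (6.53), Pdcd1lg2 (5.89) and Sap25 (6.78). Of these, Tmem26, a membrane protein, had the most reads, 78 counts in NT and 5583 in IL-4, while Sprr2a3 and Col6a5 had 1 count in NT and Sap25 had 0. The counts of Sprr2a3, Col6a5 and Sap25 in IL-4 were not whole. Nearest to Retnla were Ksr2 (4.22), Ccl7 (4.07), Rab15 (4.29), Scimp (3.99) and Ccl24 (4.34). Ccl7 and Ccl24 encode chemokines, and they had 9 and 162 counts and 3 and 72 counts. The 5 were chosen for this nearness, so their place within the interval of Retnla (3.32 to 5.31) adds nothing to the likeness.

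Neutrophils also make Chil3 and Retnlg, so their markers are given beside these results. Of 13 neutrophil markers, 5 (S100a9, Ly6g, Camp, Ngp and Mpo) were at 0 in both libraries, and the level of the list summed to 60.2 FPKM in NT and 89.0 FPKM in IL-4. Most of that was Csf3r, the receptor of G-CSF, at 41.2 and 76.0 FPKM, which was called higher (0.88). Of the rest, S100a8 had 35 and 21 counts and Mmp8 74 and 50, and none was called. Of 7 eosinophil markers, Epx, Ear1, Ear6 and Ccr3 were at 0, the list summed to 2.36 and 1.44 FPKM, and Siglecf was called lower, at 53 and 27 counts (-0.99). The call of Csf3r was lost in 3 of 11 alternatives and that of Siglecf in 4 of 12. Beside these calls, 4.07% of all tested genes were called higher and 6.28% lower. The part of these cells in the rise of Chil3 and Retnla was not tested.

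The other lists of cell types held few reads. For the calls given here, 4.07% of all tested genes were called higher and 6.28% lower. The summed expected counts in NT and IL-4 were 69 and 50 for 5 mast cell markers, 106 and 96 for 4 B cell markers, 44 and 27 for 5 T and NK cell markers, and 66.8 and 66.5 for 4 dendritic cell markers, with 0 called. The 4 markers of resident peritoneal macrophages summed to 113 and 196 counts, of which Selp was called higher, at 25 and 72 (1.48). The 4 mesothelial markers summed to 78 and 102, with Lrrn4 called higher, at 32 and 68 (1.05), and Msln lower, at 12 and 2 (-2.35). The 8 macrophage markers summed to 14906 FPKM in NT and 14768 FPKM in IL-4, with Csf1r called higher (0.90), Cd14 lower (-1.07) and 6 neither.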

How the data were processed

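RNA of 1 NT and 1 IL-4 sample was sequenced at BGI (Illumina HiSeq), and the sample titles give the groups. Per the submitters' notes, the authors used Bowtie and RSEM on GRCm38/mm10; their versions and the strand setting are not given in the sources used here. The deposited tables hold an expected count per gene, not scaled for depth, and the authors' FPKM, scaled for length and depth. A deposited column of gene lengths served only for the length check. Counts were called whole within 0.005; 77.6% of those in NT and 77.8% in IL-4 were.

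NCBI gene numbers were matched to symbols and coordinates through a RefSeq table of GRCm38 (15587 of 15623). Coding sequences came from GENCODE M21, and promoters of all 7 members from RefSeq. Expected counts were rounded for the exact test, which left out 30 genes at 0. Members and lists were chosen with earlier results of these data known. Named were all members, of each list at most the 4 largest rises and 4 largest falls with at least 10 counts and markers at 0, the 5 genes nearest in ratio to Chil3 and to Retnla, and chromosomal neighbours. Chia2 was not matched, and Ear11 was matched by synonym. Alternatives covered scaling (edgeR 4.0.16, DESeq2 1.42.0), FPKM with 0.1 or 1 added, thresholds, the edgeR exact test with a biological coefficient of variation set at 0.2 or 0.4, filters and a length trend. Intervals cover counting error only. The procedure was tested on simulated data. Python 3.11.15, scipy 1.17.1, Biopython 1.88 and R 4.3.3 were used.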

Additional observations from a re-analysis of the deposited data

How the results depend on the processing

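No paired analysis was possible because NT and IL-4 have 1 library each. Chil3 and Retnla were called higher under each alternative that could test them, with log2 ratios of 6.09 to 6.31 and 3.57 to 4.20. Of 44 comparisons of the members with an alternative, 42 kept direction and call, 2 lost the call (Chil4 with FPKM with 1 added, 0.64, and with the larger assumed variation, 0.4) and 0 reversed. Those 2 were among 10 for Chil4, and 11 of the 44 were for Chil1, which was never called. The thresholds, filters and assumed variations kept the main log2 ratio, so direction could not change in them. Of 971 such comparisons for other named genes, 907 had the same call, 60 lost the call and 4 gained it (calls of Il13ra1, Ep300 and Msr1 as lower). A change of direction was counted only where a call was made, and 0 of these reversed. Some genes that were never called did change sign, such as Jak1 (-0.07, and 0.16 with the length trend subtracted). Scaling moved all ratios by 0.04, 0.03 and -0.02.

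With whole expected counts only, 1 member was called higher, since Chil3 and Chil4 are left out, and 644 genes were called lower. With FPKM with 1 added, 391 genes were called higher and 399 lower, with a log2 ratio of at least 1 and BH at most 0.05 the numbers were 408 and 476, with an assumed variation of 0.2 these were 390 and 423, and with 0.4 they were 65 and 8. With 0.4, 1 IL-4 signalling gene and 9 M2 products were called higher, and the calls of Pparg, Klf4, Cd44, Selp, Lrrn4, Msln, Csf1r and Cd14 were lost. Depth limits the genes with few reads: Chil1, Chil4 and the NT value of Retnla rest on 10 reads or fewer. Variation between animals could not be estimated.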
